A study of Mus musculus with 12 samples.

Results

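The response described here is that of wild type (WT) mouse embryonic stem cells to 2 days of doxycycline, which shuts off the pluripotency factor Oct4 in the line used. The cells were ZHBTc4 cells of strain 129/Ola, in which both native copies of Pou5f1, the gene of Oct4, are disrupted and Oct4 comes only from a transgene that doxycycline silences. The comparison uses the 4 libraries labelled WT doxycycline (WT DOX) and WT control, 2 of each, out of 12 in the series, and describes genes across the whole transcriptome. WT DOX cells received doxycycline for 2 days at 0.5 µg/ml in the sample labels, written as 0.5 mg/ml in the protocol text, and WT control cells received none. The other 8 libraries are Phf6 knockout (KO) cells with doxycycline or untreated, and WT and KO cells with retinoic acid for 4 days. All cells were kept in serum with leukemia inhibitory factor, the retinoic acid cultures excepted, on gelatin after early passages on fibroblast feeders. Every control carries the disrupted Pou5f1 alleles and the transgene too, so the effect of doxycycline itself and that of Oct4 loss cannot be told apart here. Separate cultures are not stated for the 2 libraries of a group, so a p-value here speaks of the spread of these libraries alone, and that spread may be technical.

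Oct4 is a POU-domain transcription factor that binds an octamer sequence, often together with Sox2, and holds embryonic stem cells in the pluripotent state. In the mouse embryo it keeps the inner cell mass from turning into trophectoderm, the outer epithelium that builds the placenta, and cells that lose it become flat, adherent and trophoblast-like. Such a switch touches much more than lineage genes, since shape, signalling, metabolism and growth of the cell change with it.

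Pou5f1 (chromosome 17, 35506018 to 35510772, GRCm38) stood at 34.0 and 46.3 CPM (read counts scaled to library size) in WT DOX cells, against 1031 and 1013 CPM in WT control cells. Of 30 tested markers of embryonic stem cells 28 fell and none rose, and of 32 tested markers of trophectoderm 24 rose and 5 fell. Total counts were 15799517 and 21441996 in the WT DOX libraries and 18767773 and 17834423 in the WT control libraries. Of 12 placental markers, 2 passed the filter on low counts, and both stayed below 4 CPM in sum in each library. WT DOX replicate 1 stood below replicate 2 for several short, abundant mRNAs, and the values of those named here are given per library.

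Of 17884 genes tested, 11274 were called at an adjusted p below 0.05, which is 63.0% (edgeR's quasi-likelihood test, Benjamini-Hochberg adjustment). In WT DOX cells 5682 genes were higher (31.8%) and 5592 were lower (31.3%) than in WT control cells. With a change of at least 2-fold as well, 2307 genes (12.9%) were higher and 2206 (12.3%) were lower. With upper-quartile scaling of the libraries the median gene moved by -0.116 on the log2 scale, and 4818 genes were called higher against 6556 lower. Most calls were of small size. The median absolute change of all tested genes was 0.54 on the log2 scale, and 3375 of the higher and 3386 of the lower genes changed less than 2-fold. At the other end, 68 genes were called at least 64-fold higher and 89 at least 64-fold lower by their fitted values. A gene that is lower in RNA of a whole culture can be so because fewer cells express it or because each cell holds less of it, and bulk libraries cannot tell these apart.

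**Figure D1:**
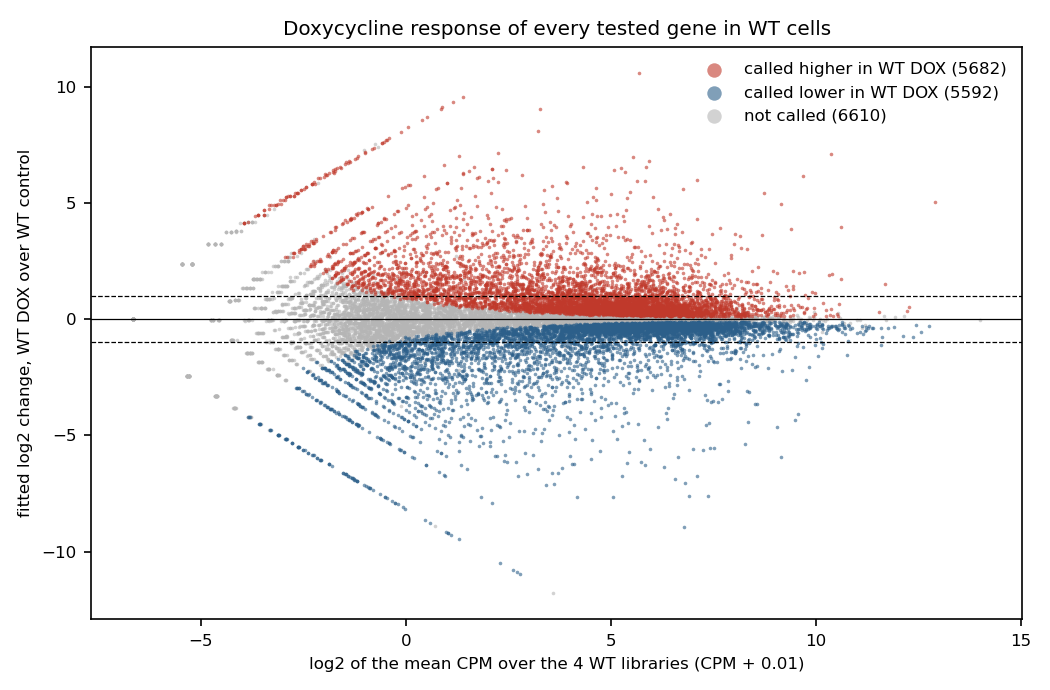
Each point is 1 of the 17884 tested genes. The horizontal axis gives the log2 of its mean CPM over the 4 WT libraries, and the vertical axis the fitted log2 change of WT DOX over WT control. Red points were called higher (5682), blue points lower (5592) and grey points were not called, and dashed lines mark 2-fold. The slanted rows at the left are genes with no or few reads in 1 group, whose fitted change depends on the prior count and is not a bound.

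The direction of change differed with the level of the gene. Among the 2424 genes above 100 CPM, 31.8% were higher and 48.8% were lower in WT DOX cells. Among the 7202 genes between 10 and 100 CPM, 41.5% were higher and 32.5% lower. Long intergenic RNAs and processed pseudogenes had more lower than higher genes, but were called less often in either direction than all tested genes. Of 497 long intergenic RNAs 67 were higher (13.5%) and 140 lower (28.2%), beside 31.8% and 31.3% over all tested genes. Of 778 processed pseudogenes 45 were higher (5.8%) and 161 lower (20.7%), where reads shared with the parent gene make single values uncertain. Antisense transcripts, with 70 higher (15.9%) and 80 lower (18.1%) of 441, were nearly even. Protein-coding genes were split nearly evenly, with 5372 higher and 5033 lower of 15221. Few genes behaved as switches. Only 24 genes had at least 5 CPM in both WT DOX libraries and under 0.5 CPM in both WT control libraries, and 43 genes had the reverse.

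Among the largest rises were secreted and signalling proteins of the growth factor and Wnt systems. Csf1, the macrophage colony-stimulating factor, had 81.0 and 78.6 CPM in WT DOX cells and 1.00 and 0.996 CPM in WT control cells, a log2 change of 6.31 ± 0.13 (SE, adjusted p = 1.1e-25). Igfbp5, a binding protein of insulin-like growth factors, had 76.3 and 74.4 CPM in WT DOX cells, against 0.647 and 0.996 CPM in WT control cells, a log2 change of 6.51 ± 0.16. Both genes were far above control in both WT DOX libraries, with no overlap between groups. Wnt10b, a Wnt ligand, had 296 reads in the WT DOX libraries against 3 in the WT control libraries, a ratio of 94.6 per scaled library size (95% counting interval 32.0 to 461). Counting intervals here are exact binomial ones and cover counting error only.

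The other large rises came from regulators and from genes best known in other tissues. Zfp36l3, an RNA-binding zinc-finger protein known in rodents from the placenta, had 112 and 117 CPM in WT DOX cells, against 1.12 and 1.31 CPM in WT control cells, a log2 change of 6.56 ± 0.11. Vgll1, a cofactor of TEAD transcription factors, had 217 reads in WT DOX cells against 2 in WT control cells, a ratio of 104 (95% counting interval 28.4 to 864). Nxf7, a member of the mRNA export factor family, had 69.4 and 64.5 CPM in WT DOX cells and 0.470 and 1.12 CPM in WT control cells, a log2 change of 6.40 ± 0.19. Each of them was near or below 1 CPM in untreated cells. Htr1d, a serotonin receptor, had no read in either WT control library and 5.79 and 4.59 CPM in WT DOX cells, which makes it at least 28.6-fold higher, with 3 counts in each control library taken as the detection limit. Chrna3, a nicotinic acetylcholine receptor subunit, had a ratio of 94.6 from 296 against 3 reads (95% counting interval 32.0 to 461). Myl3, a myosin light chain of heart and slow muscle, had 8.85 and 12.6 CPM in WT DOX cells and 0.176 and 0.0623 CPM in WT control cells, a log2 change of 6.40 ± 0.38.

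**Figure D2:**
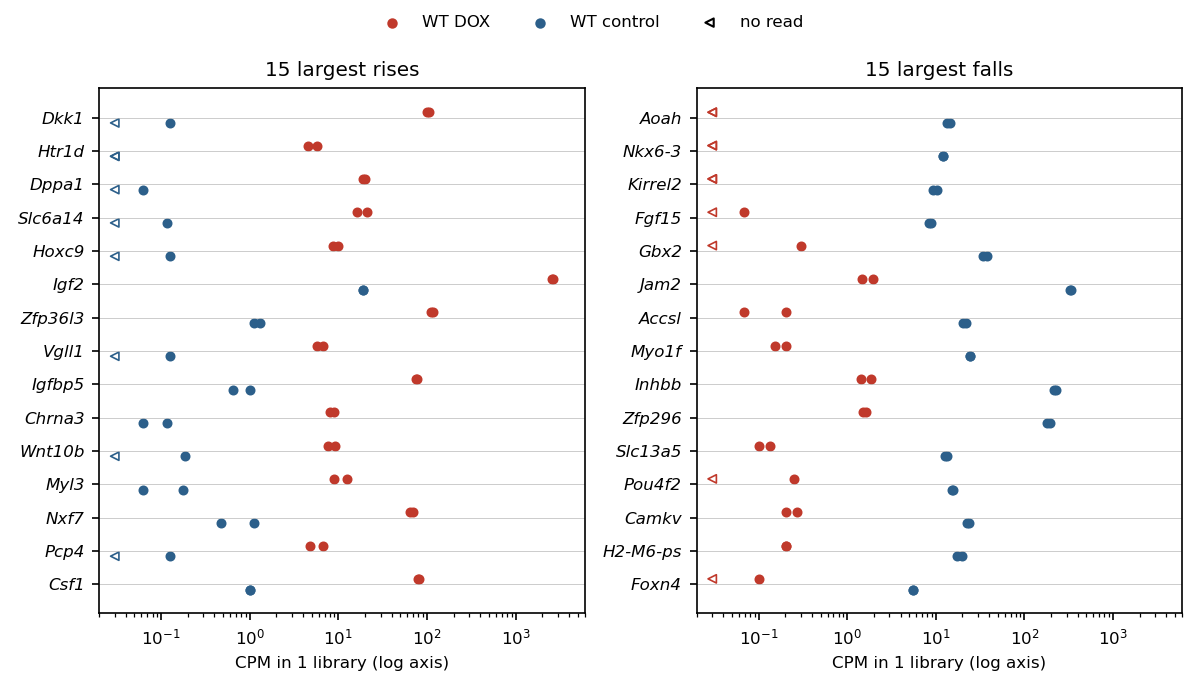
CPM in each library, on a log axis, of 15 genes with the largest rises (left) and 15 with the largest falls (right). They were taken among called genes that reach 5 CPM in the higher group and whose libraries do not overlap. Genes on the marker lists and predicted or clone-based symbols were left out. Larger changes such as those of Fgf4 (log2 change -8.95) and Cdx2 (6.79) are therefore not drawn. Red points are the 2 WT DOX libraries and blue points the 2 WT control libraries, and open triangles at the left edge mark libraries with no read. Igf2 stood highest among the rises in WT DOX cells, and Jam2 among the falls, at 1.97 and 1.46 CPM in WT DOX cells against 332 and 323 CPM in WT control cells.

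The largest falls held adhesion molecules, ligands and regulators of the stem cell state. Jam2, a junctional adhesion molecule, had 1.97 and 1.46 CPM in WT DOX cells, against 332 and 323 CPM in WT control cells, a log2 change of -7.60 ± 0.092 (adjusted p = 2e-30). Inhbb, the beta B subunit of activin and inhibin, had 1.43 and 1.87 CPM in WT DOX cells, against 226 and 214 CPM in WT control cells, a log2 change of -7.03 ± 0.11. Zfp296, a zinc-finger protein that promotes reprogramming to pluripotency in mouse cells, had 1.5 and 1.6 CPM in WT DOX cells and 193 and 180 CPM in WT control cells, a log2 change of -6.89 ± 0.10. All 3 were above 100 CPM in both WT control libraries and below 2 CPM in both WT DOX libraries. Kirrel2, an immunoglobulin-type adhesion protein, had no read in WT DOX cells and 9.41 and 10.3 CPM in WT control cells, so it was at least 55.3-fold lower. Gbx2, a homeobox factor of the LIF response, had 0 and 0.303 CPM in WT DOX cells, against 33.7 and 38.1 CPM in WT control cells. Myo1f, an unconventional myosin known from immune cells, had 0.204 and 0.151 CPM in WT DOX cells, against 24.2 and 24.5 CPM in WT control cells, a log2 change of -7.07 ± 0.23.

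The octamer ATGCAAAT, the core sequence read by POU factors, was looked for on both strands in RefSeq promoters of GRCm38.p6, 250 bases before to 50 after each gene start, which were found for 12326 of 17869 tested symbols. It lay in 1.37% of the 15678 promoters of all tested genes, in 1.49% of those of genes called at least 2-fold higher and in 2.54% of those of genes called at least 2-fold lower. The promoter of Zfp296 (chr7:19577037-19577336, plus strand) and 1 of the 2 listed for Spp1 (chr5:104435942-104436241, plus strand), the gene of osteopontin, hold it and are shown with the octamer or its complement in capitals, as examples chosen, like the other promoters printed here, after the matches were seen. A match describes letters in this window and is not a shown binding site.
Zfp296: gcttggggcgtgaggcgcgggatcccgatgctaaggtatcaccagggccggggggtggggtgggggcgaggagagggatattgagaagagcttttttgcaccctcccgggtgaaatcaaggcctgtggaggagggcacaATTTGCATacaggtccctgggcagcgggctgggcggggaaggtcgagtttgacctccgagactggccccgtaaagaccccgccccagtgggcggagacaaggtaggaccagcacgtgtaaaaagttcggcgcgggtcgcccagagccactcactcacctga
Spp1: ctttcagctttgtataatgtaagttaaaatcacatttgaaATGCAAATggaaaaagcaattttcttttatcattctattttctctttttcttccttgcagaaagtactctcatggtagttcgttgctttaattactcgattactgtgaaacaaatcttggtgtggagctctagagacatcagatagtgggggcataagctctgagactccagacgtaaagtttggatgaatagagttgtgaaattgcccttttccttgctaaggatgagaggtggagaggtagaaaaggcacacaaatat
The octamer begins 111 bases before the start of Zfp296, on the minus strand, and 210 bases before the downstream start listed for Spp1. The window at the upstream Spp1 start (chr5:104434861-104435160) holds no match. Spp1 had 242 and 238 CPM in WT DOX cells, against 1473 and 1493 CPM in WT control cells, a log2 change of -2.63 ± 0.057.

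The genes with the largest changes in level included metabolic and cytoskeletal transcripts. On the TPM scale (a share of transcripts, corrected for length), the 10 genes with the largest gains held 5.36% of all transcripts in WT DOX cells, against 2.87% in WT control cells. The 10 with the largest losses held 2.46% in WT DOX cells, against 4.10% in WT control cells. Fabp3, a fatty acid binding protein, averaged 6062 TPM in WT DOX cells and 359 TPM in WT control cells, and Peg10, a placental gene derived from a retrotransposon, 3023 TPM in WT DOX cells and 84.6 TPM in WT control cells. Tuba1a, an alpha-tubulin, averaged 2153 TPM in WT DOX cells, against 593 TPM in WT control cells. Among the losses, Dppa5a, an RNA-binding protein of pluripotent cells, averaged 250 TPM in WT DOX cells and 3926 TPM in WT control cells, and Eno1, the glycolytic enolase, 637 TPM in WT DOX cells and 1726 TPM in WT control cells. Not every gene of these 20 was called. The gain of mt-Atp8, a mitochondrial gene of ATP synthase, came from WT DOX replicate 1, with 429 and 271 CPM in WT DOX cells against 271 and 288 CPM in WT control cells (adjusted p = 0.27). Rps12, a ribosomal protein gene, had 1618 and 2269 CPM in WT DOX cells, against 2500 and 2568 CPM in WT control cells (adjusted p = 0.12). Gm10925, a nuclear copy of mitochondrial sequence, had 3827 and 2910 CPM in WT DOX cells and 2918 and 3144 CPM in WT control cells (adjusted p = 0.46), and it shares reads with the mitochondrial gene.

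**Figure D3:**
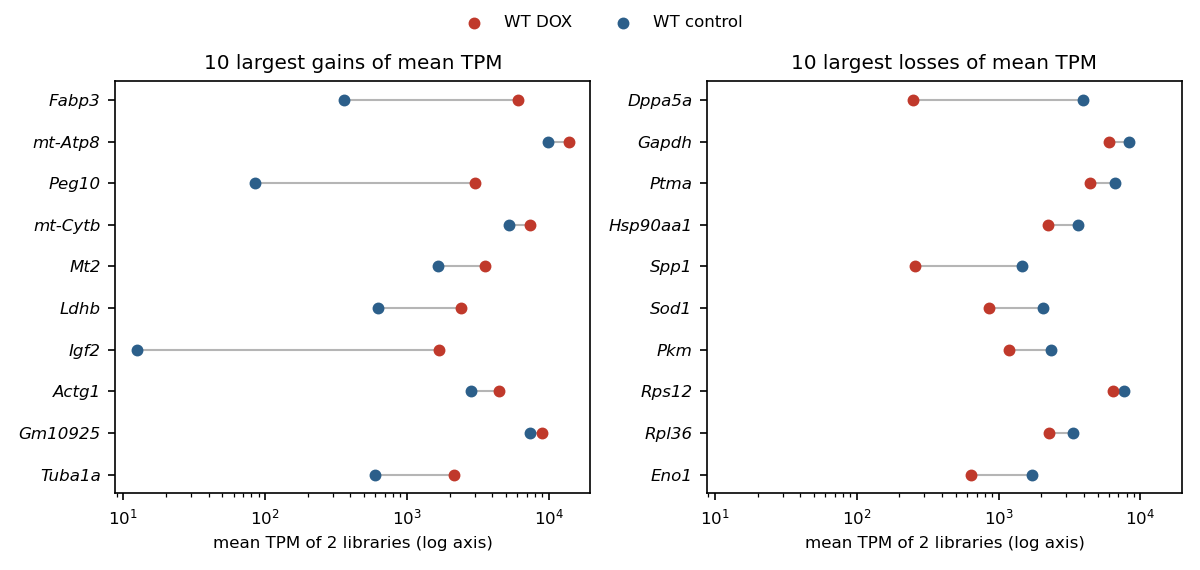
Mean TPM of the 2 WT DOX libraries (red) and of the 2 WT control libraries (blue), on a log axis, for the 10 genes that gained most TPM and the 10 that lost most. Igf2 and Peg10 show the widest gaps among the gains, at 1695 against 12.5 TPM and 3023 against 84.6 TPM, and Dppa5a among the losses, at 250 against 3926 TPM.

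The actin cytoskeleton rose almost as a whole. Of 29 tested genes of actins, their binding proteins and other targets of serum response factor (SRF), 28 were higher and 1 was lower in WT DOX cells, with 18 at least 2-fold higher and a median log2 change of 1.25, beside 31.8% higher and a median of 0 over all tested genes. Tagln, which encodes the actin-binding protein transgelin, had 143 and 152 CPM in WT DOX cells, against 6.53 and 7.53 CPM in WT control cells, a log2 change of 4.39 ± 0.10. Acta2, smooth muscle actin, had 12.5 and 10.1 CPM in WT DOX cells, against 0.470 and 0.623 CPM in WT control cells, a log2 change of 4.34 ± 0.25. Acta1, skeletal muscle actin, had 19.4 and 23.6 CPM in WT DOX cells, against 0.941 and 1.43 CPM in WT control cells, a log2 change of 4.19 ± 0.20. The muscle-type actins were scarce before and moderate after, while the cytoplasmic Actg1 was abundant in both, with 5598 and 5990 CPM in WT DOX cells and 4009 and 3964 CPM in WT control cells. Srf itself was the 1 member that fell, with 114 and 112 CPM in WT DOX cells against 143 and 132 CPM in WT control cells, a log2 change of -0.29 ± 0.064.

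Fibroblasts also express actin genes, and the early passages were on feeders, so feeder markers were read beside these values. Of 15 tested feeder markers 8 were higher (53.3%) and 4 lower (26.7%), beside 31.8% and 31.3% over all tested genes. Their summed level was 1177 and 1309 CPM in WT DOX cells, against 1953 and 1839 CPM in WT control cells. The list did not move as a whole. Col1a1, a fibroblast collagen chain, had 8.51 and 8.43 CPM in WT DOX cells, against 4.00 and 3.24 CPM in WT control cells, and was called higher. Thy1, a surface marker of fibroblasts, had 2.9 and 2.6 CPM in WT DOX cells, against 20 and 22 CPM in WT control cells, and was called lower. Dcn, which marks fibroblasts, had 0.136 and 0.101 CPM in WT DOX cells and 0.412 and 0.374 CPM in WT control cells, and Col3a1 had 0.340 and 0.353 CPM in WT DOX cells and 0.53 and 1.2 CPM in WT control cells. Dcn and Col3a1 were near 0 and not called, while Acta2 and Vim, which stand on the feeder list, were higher, and the part of feeder cells in the actin result was not tested. Vim, the intermediate filament protein vimentin, had 448 and 490 CPM in WT DOX cells, against 212 and 212 CPM in WT control cells.

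SRF binds a CArG box, which was found in 1.33% of all promoters searched and in 10 of 31 promoters (32.3%) of the actin list, which was made of known SRF targets. The promoters of Acta1 (chr8:123894726-123895025, minus strand) and the pair listed for Fhl2 (chr1:43196712-43197011 and chr1:43163912-43164211, minus strand), which encodes a LIM-domain cofactor of SRF, are shown because they hold the box close to the start, with the box in capitals.
Acta1: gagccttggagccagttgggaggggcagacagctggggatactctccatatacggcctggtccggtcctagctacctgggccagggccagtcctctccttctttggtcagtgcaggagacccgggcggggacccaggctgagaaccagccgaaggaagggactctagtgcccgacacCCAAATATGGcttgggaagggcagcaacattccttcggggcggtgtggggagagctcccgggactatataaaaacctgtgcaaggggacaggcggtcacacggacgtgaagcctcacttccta
Fhl2 upstream: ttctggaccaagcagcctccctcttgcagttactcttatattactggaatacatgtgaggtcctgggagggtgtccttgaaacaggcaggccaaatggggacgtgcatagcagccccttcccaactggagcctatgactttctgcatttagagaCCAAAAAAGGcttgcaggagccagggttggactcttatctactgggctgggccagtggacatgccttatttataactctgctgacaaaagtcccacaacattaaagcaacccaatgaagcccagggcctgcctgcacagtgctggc
Fhl2 downstream: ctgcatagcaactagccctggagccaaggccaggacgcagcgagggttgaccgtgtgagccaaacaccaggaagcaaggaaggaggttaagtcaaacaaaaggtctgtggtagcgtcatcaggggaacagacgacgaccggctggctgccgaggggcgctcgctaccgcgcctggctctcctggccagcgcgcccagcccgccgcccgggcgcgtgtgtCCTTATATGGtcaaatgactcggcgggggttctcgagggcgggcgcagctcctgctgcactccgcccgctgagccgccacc
The box begins 73 bases before the start in Acta1, and 96 and 31 bases before it in the Fhl2 promoters. Fhl2, named after its values were seen, had 26.8 and 27.4 CPM in WT DOX cells, against 3.23 and 2.37 CPM in WT control cells, a log2 change of 3.27 ± 0.17.

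Annexins and claudins were mostly higher, although other adhesion genes such as Jam2 and Kirrel2 stand among the largest falls. Of 10 annexins, which bind membrane lipids in the presence of calcium, 8 were higher and 2 lower. Anxa2 had 91.1 and 91.0 CPM in WT DOX cells, against 10.1 and 11.0 CPM in WT control cells, a log2 change of 3.11 ± 0.12. Of 14 claudins, the seal proteins of tight junctions, 10 were higher and 4 lower, with a median log2 change of 2.18. Cldn4 had 599 and 658 CPM in WT DOX cells, against 129 and 135 CPM in WT control cells, and Cldn3 had 38.3 and 46.9 CPM in WT DOX cells, against 3.47 and 4.61 CPM in WT control cells. The libraries of the groups did not overlap for any of these. Among 42 protocadherins 18 were higher (42.9%) and 6 lower (14.3%), beside 31.8% and 31.3% over all tested genes. Many of them are clustered genes that share exons and are uncertain one by one. Pcdh1, a gene outside those clusters, had 87.4 and 98.5 CPM in WT DOX cells, against 11.9 and 12.8 CPM in WT control cells.

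Microtubule genes did not follow the actin genes. Of 55 tested tubulins, stathmins and kinesins 14 were higher (25.5%) and 24 lower (43.6%), beside 31.8% and 31.3% over all tested genes. Tuba1a and Tubb6 were higher and Tuba4a was lower. Tubb6, a beta-tubulin, had 507 and 541 CPM in WT DOX cells, against 187 and 185 CPM in WT control cells, and Tuba4a, an alpha-tubulin, 33.2 and 30.3 CPM in WT DOX cells, against 183 and 191 CPM in WT control cells. Stmn2, a tubulin-binding stathmin best known from neurons, had 26.1 and 27.6 CPM in WT DOX cells, against 316 and 323 CPM in WT control cells, a log2 change of -3.57 ± 0.057.

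The YAP and TEAD pathway senses cell shape and marks trophectoderm in the embryo. Of its 23 tested genes, regulators and targets together, 15 were higher (65.2%) and 5 lower (21.7%), beside 31.8% and 31.3% over all tested genes. Cyr61, a secreted matrix protein and a standard readout of YAP, had 456 and 475 CPM in WT DOX cells, against 48.3 and 50.6 CPM in WT control cells, a log2 change of 3.23 ± 0.063. Amot, the scaffold angiomotin that restrains YAP, had 137 and 140 CPM in WT DOX cells, against 10.5 and 9.22 CPM in WT control cells, a log2 change of 3.81 ± 0.077. Ctgf, the other standard readout, was lower, with 53.0 and 58.5 CPM in WT DOX cells against 73.3 and 71.9 CPM in WT control cells, a log2 change of -0.37 ± 0.078. Cyr61 and Ctgf thus moved in opposite directions, both without overlap between libraries. Ankrd1, a muscle and YAP-responsive ankyrin repeat protein, had 175 reads in WT DOX cells against 2 in WT control cells, a ratio of 83.9 (95% counting interval 22.9 to 698). TEAD factors read GGAATG, which was found on either strand in 12.5% of all promoters. It lay in 12 of 20 promoters (60%, of 15 genes) of this list. The list was made of known pathway genes and targets, so this share is not a test. In the actin list GGAATG lay in 10 of 31 promoters (32.3%). The promoter of Ankrd1 (chr19:36119795-36120094, minus strand) holds it 2 times, the first beginning 210 bases before the start, and is shown with both in capitals.
Ankrd1: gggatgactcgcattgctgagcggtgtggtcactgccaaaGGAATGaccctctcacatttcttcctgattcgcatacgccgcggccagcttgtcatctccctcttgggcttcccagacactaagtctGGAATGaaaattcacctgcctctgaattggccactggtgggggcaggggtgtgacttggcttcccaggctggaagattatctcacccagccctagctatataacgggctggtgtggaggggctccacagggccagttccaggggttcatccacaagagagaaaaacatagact

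Signalling genes of the ERK pathway moved in both directions. Sprouty and Spred proteins, which are induced by ERK and damp it, fell, with 5 of 6 lower and none higher. Spry4 had 5.86 and 6.11 CPM in WT DOX cells, against 304 and 293 CPM in WT control cells, a log2 change of -5.63 ± 0.074. Egr1, an immediate early gene of ERK, had 3.0 and 3.1 CPM in WT DOX cells, against 70.9 and 77.5 CPM in WT control cells, a log2 change of -4.60 ± 0.11. Dusp6, the cytoplasmic ERK phosphatase, had 14.0 and 13.3 CPM in WT DOX cells, against 114 and 112 CPM in WT control cells, a log2 change of -3.06 ± 0.074. These feedback genes were lower in both libraries by a wide margin, and the Ets factors Etv4 and Etv5 fell with them. Etv5 had 27.6 and 30.0 CPM in WT DOX cells, against 615 and 627 CPM in WT control cells, and Etv4 had 2.59 and 2.47 CPM in WT DOX cells, against 120 and 120 CPM in WT control cells. Of 22 dual-specificity phosphatases 13 were higher (59.1%) and 2 lower (9.1%), Dusp6 and Dusp27, or 13 and 5 with upper-quartile scaling. Over all tested genes 31.8% were higher and 31.3% lower. Dusp27 had 4.90 and 5.90 CPM in WT DOX cells, against 141 and 133 CPM in WT control cells. Dusp8, which acts on JNK and p38, had 50.2 and 52.3 CPM in WT DOX cells, against 4.41 and 4.86 CPM in WT control cells, and Dusp9, the placental ERK phosphatase, 1223 and 1200 CPM in WT DOX cells, against 302 and 315 CPM in WT control cells.

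AP-1 and immediate early genes were not all lower like Egr1. Of 20 tested, 10 were higher and 3 lower. Jun had 187 and 208 CPM in WT DOX cells, against 24.7 and 25.7 CPM in WT control cells, a log2 change of 2.97 ± 0.065, and Fos had 14.4 and 17.3 CPM in WT DOX cells, against 10.9 and 10.8 CPM in WT control cells, a log2 change of 0.55 ± 0.11. Fosl2, another partner of Jun, had 44.3 and 47.0 CPM in WT DOX cells, against 3.29 and 2.74 CPM in WT control cells, a log2 change of 3.91 ± 0.11. Junb, Fosb and Fosl1, other AP-1 subunits, were not called, with log2 changes of -0.00, -0.35 and -0.73. Klf6, an immediate early zinc-finger factor, had 494 and 477 CPM in WT DOX cells, against 39.1 and 38.4 CPM in WT control cells.

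Ligands and receptors had members in both directions. Of 31 growth factor ligands 14 were higher (45.2%) and 13 lower (41.9%), beside 31.8% and 31.3% over all tested genes. Of 34 receptor tyrosine kinases 16 were higher (47.1%) and 11 lower (32.4%). Pdgfb, a platelet-derived growth factor chain, had 34.9 and 45.0 CPM in WT DOX cells, against 3.18 and 3.05 CPM in WT control cells, a log2 change of 3.69 ± 0.16. Its receptor gene Pdgfra had 12.9 and 13.1 CPM in WT DOX cells, against 2.12 and 1.56 CPM in WT control cells. Fgfr2, the FGF receptor of trophoblast stem cells, had 85.1 and 87.9 CPM in WT DOX cells, against 9.94 and 10.5 CPM in WT control cells, a log2 change of 3.08 ± 0.084. Flt1, a VEGF receptor of trophoblast and endothelium, had 11.2 and 11.9 CPM in WT DOX cells and 1.24 and 0.747 CPM in WT control cells. Kit, the stem cell factor receptor, had 32.6 and 30.9 CPM in WT DOX cells, against 137 and 129 CPM in WT control cells, a log2 change of -2.07 ± 0.063. The libraries of the groups did not overlap for any of these genes.

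Guidance molecules had members in both directions, at shares not far from those over all tested genes. Among 22 ephrins and Eph receptors 9 were higher (40.9%) and 5 lower (22.7%). The ligands Efnb1 and Efnb2 rose, Efnb1 to 57.2 and 59.0 CPM in WT DOX cells, against 5.53 and 3.86 CPM in WT control cells. The receptor Epha2 fell to 27.0 and 30.2 CPM in WT DOX cells, against 340 and 319 CPM in WT control cells, a log2 change of -3.52 ± 0.069. Of 30 semaphorins, plexins and neuropilins 12 were higher (40.0%) and 9 lower (30.0%), or 11 and 12 with upper-quartile scaling. Sema6a had 15.2 and 14.1 CPM in WT DOX cells, against 1.47 and 1.56 CPM in WT control cells, and Sema5b 0.136 and 0.353 CPM in WT DOX cells, against 13.6 and 15.8 CPM in WT control cells. In the Notch pathway 5 of 20 were higher and 11 lower. Notch4 had 0.477 and 0.454 CPM in WT DOX cells, against 12.6 and 13.5 CPM in WT control cells, and Notch1 20.4 and 18.7 CPM in WT DOX cells, against 55.9 and 59.8 CPM in WT control cells, while Notch2 was higher with 87.6 and 94.0 CPM in WT DOX cells, against 52.6 and 46.2 CPM in WT control cells.

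Transcription factor families differed in how their members were spread. Dlx and Msx homeobox genes (5 higher and none lower of 9) and GATA factors (4 and none of 6) leaned up. Id proteins (3 and none of 4) and the homeobox genes grouped with Irx (6 and 2 of 11) did too. Msx2, Dlx3, Dlx5, Gata2, Gata3 and Id2 also stand on the trophectoderm marker list, and Gata4 and Gata6 on that of primitive endoderm. These leans are thus not separate from the marker counts. Msx2, of the Dlx and Msx group, had 39.2 and 40.0 CPM in WT DOX cells, against 0.529 and 0.311 CPM in WT control cells. Irx3 had 6.81 and 9.03 CPM in WT DOX cells, against 0.529 and 0.623 CPM in WT control cells. Id2, an inhibitor of helix-loop-helix factors, had 52.8 and 59.0 CPM in WT DOX cells, against 11.1 and 11.1 CPM in WT control cells. Of 25 Klf and Sp factors 8 were higher (32.0%, near the share over all tested genes) and 12 lower. Klf2, Klf4 and Klf5, which support pluripotency in mouse cells, were lower, and Klf2 had 15.0 and 14.2 CPM in WT DOX cells, against 310 and 333 CPM in WT control cells. Sp6 and Klf7 were higher, and Klf7 had 93.6 and 83.3 CPM in WT DOX cells, against 25.6 and 24.6 CPM in WT control cells.

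Of 18 Sox factors 5 were higher and 7 lower. Sox2, the partner of Oct4, had 33.5 and 36.3 CPM in WT DOX cells, against 381 and 389 CPM in WT control cells, a log2 change of -3.46 ± 0.061. Sox4 had 74.3 and 78.9 CPM in WT DOX cells, against 17.6 and 17.6 CPM in WT control cells, and Sox11 had 37.7 and 44.4 CPM in WT DOX cells, against 7.35 and 7.41 CPM in WT control cells. Among 21 Ets factors 6 were higher and 10 lower. Ets1 had 38.6 and 37.5 CPM in WT DOX cells, against 2.12 and 1.49 CPM in WT control cells, and Elf3, an epithelial Ets factor, 172 and 194 CPM in WT DOX cells, against 34.8 and 35.4 CPM in WT control cells. The shares, 27.8% higher and 38.9% lower for Sox and 28.6% and 47.6% for Ets genes, stand beside 31.8% and 31.3% over all tested genes. Of 43 nuclear receptors 16 were higher (37.2%) and 10 lower (23.3%). Vdr, the vitamin D receptor, had 25.5 and 24.0 CPM in WT DOX cells, against 0.647 and 0.685 CPM in WT control cells, a log2 change of 5.20 ± 0.19. Rarg, a retinoic acid receptor, had 12.4 and 12.7 CPM in WT DOX cells, against 69.0 and 69.7 CPM in WT control cells. Of 36 forkhead factors 15 were higher (41.7%) and 8 lower (22.2%). Foxo4, a factor restrained by insulin signalling, had 283 and 270 CPM in WT DOX cells, against 94.2 and 96.4 CPM in WT control cells, and Foxp1 6.26 and 6.26 CPM in WT DOX cells, against 30.2 and 26.2 CPM in WT control cells.

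**Figure D4:**
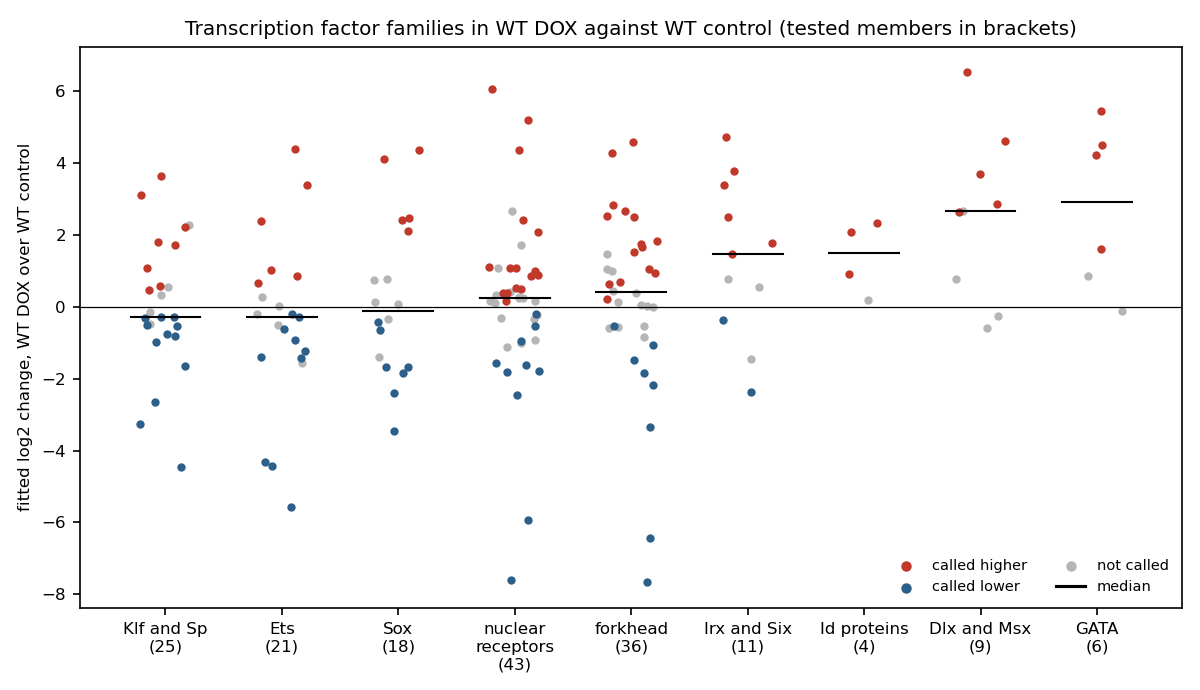
Each point is a tested member of the transcription factor family named on the horizontal axis, with the number of tested members in brackets, and the vertical axis gives its fitted log2 change of WT DOX over WT control. Red members were called higher, blue lower and grey not called, black lines are medians, and members without a read in 1 group are drawn at their bound. The Dlx and Msx and GATA families have no blue point, while Klf and Sp, Ets and Sox families have both colours.

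Glycolysis genes were mostly lower. Of 26 glycolysis genes tested 7 were higher (26.9%) and 16 lower (61.5%), beside 31.8% and 31.3% over all tested genes. Their median log2 change was -0.57. Ldha, the lactate dehydrogenase subunit that favours lactate formation, had 349 and 351 CPM in WT DOX cells, against 1431 and 1477 CPM in WT control cells, a log2 change of -2.05 ± 0.064. Ldhb, the subunit of oxidative tissues, had 1940 and 2049 CPM in WT DOX cells, against 521 and 543 CPM in WT control cells, a log2 change of 1.91 ± 0.066. The subunits thus exchanged rank on the TPM scale, with Ldhb at 2413 TPM and Ldha at 333 TPM in WT DOX cells, against 625 and 1267 TPM in WT control cells. The glucose carriers Slc2a3 and Slc2a1 rose while the lactate exporter Slc16a3 and the phosphofructokinase Pfkp fell. Slc2a3 had 4862 and 4798 CPM in WT DOX cells, against 1704 and 1700 CPM in WT control cells, and Slc2a1 959 and 1062 CPM in WT DOX cells, against 379 and 378 CPM in WT control cells. Pfkp had 77.9 and 81.9 CPM in WT DOX cells, against 279 and 276 CPM in WT control cells. Slc16a3 had 13.1 and 11.3 CPM in WT DOX cells, against 50 and 55 CPM in WT control cells, and the largest adjusted p among these 6 genes, 3e-05, was its own.

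Genes of amino acid and nucleotide synthesis were mostly lower. Of 22 genes of serine, threonine, glycine and one-carbon metabolism 17 were lower and 4 higher, with a median log2 change of -0.82. Tdh, the threonine dehydrogenase on which mouse embryonic stem cells depend, had 2.52 and 2.42 CPM in WT DOX cells, against 268 and 271 CPM in WT control cells, a log2 change of -6.77 ± 0.089. Gldc, the glycine decarboxylase, had 28.0 and 26.8 CPM in WT DOX cells, against 152 and 141 CPM in WT control cells, and Psat1, of serine synthesis, 144 and 141 CPM in WT DOX cells, against 584 and 599 CPM in WT control cells. Bhmt, which remethylates homocysteine, was higher, with 12.7 and 11.3 CPM in WT DOX cells against 1.65 and 1.93 CPM in WT control cells. Of 24 genes of purine and pyrimidine synthesis 21 were lower and none higher. Prps1, which makes the shared ribose precursor, had 82.8 and 82.1 CPM in WT DOX cells, against 300 and 302 CPM in WT control cells, a log2 change of -1.87 ± 0.053. Of 10 polyamine genes 6 were lower and 1 was higher. The higher one was Sat1, which breaks polyamines down, with 93.0 and 94.7 CPM in WT DOX cells against 45.2 and 46.6 CPM in WT control cells.

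Targets of the integrated stress response, a program run by ATF4 when amino acids are short or the endoplasmic reticulum is stressed, were mostly lower, with 16 of 23 lower and 5 higher and a median log2 change of -1.20. Cth, of cysteine synthesis, had 11.3 and 10.7 CPM in WT DOX cells, against 155 and 159 CPM in WT control cells, a log2 change of -3.84 ± 0.071. Chac1, which degrades glutathione, had 2.11 and 1.77 CPM in WT DOX cells, against 12.4 and 12.3 CPM in WT control cells. The higher members included 2 transcription factors. Atf3 had 34.9 and 34.2 CPM in WT DOX cells, against 3.76 and 5.98 CPM in WT control cells, and Cebpb had 37.1 and 54.4 CPM in WT DOX cells, against 3.88 and 4.30 CPM in WT control cells, a log2 change of 3.50 ± 0.32. Slc7a11, the cystine carrier, had 37.6 and 47.9 CPM in WT DOX cells, against 11.1 and 11.7 CPM in WT control cells. Among 23 genes of the NRF2 and glutathione system 7 were higher (30.4%) and 10 lower (43.5%), or 4 and 13 with upper-quartile scaling. Over all tested genes the shares were 31.8% and 31.3%. Hmox1, heme oxygenase, had 369 and 344 CPM in WT DOX cells, against 137 and 142 CPM in WT control cells, and Gsr, glutathione reductase, 23.5 and 25.5 CPM in WT DOX cells, against 68.9 and 68.3 CPM in WT control cells.

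Lipid genes leaned up. Of 26 genes of fatty acid synthesis and storage 16 were higher (61.5%) and 9 lower (34.6%), beside 31.8% and 31.3% over all tested genes. Of 22 of cholesterol synthesis and uptake 15 were higher (68.2%) and 2 lower (9.1%), or 12 and 6 with upper-quartile scaling. Pparg, the nuclear receptor that drives fat storage and placental development, had 223 reads in WT DOX cells against 3 in WT control cells, a ratio of 71.2 (95% counting interval 24.1 to 348). Gpat3, of triglyceride synthesis, had 46.9 and 55.9 CPM in WT DOX cells, against 2.29 and 2.49 CPM in WT control cells, a log2 change of 4.43 ± 0.14. Fabp3 had 2790 and 3104 CPM in WT DOX cells, against 186 and 195 CPM in WT control cells, a log2 change of 3.95 ± 0.12. The cholesterol genes moved little by comparison. Stard4, a sterol carrier, had 105 and 98.3 CPM in WT DOX cells, against 50.9 and 52.0 CPM in WT control cells, and Hmgcs1, of sterol synthesis, 435 and 430 CPM in WT DOX cells, against 289 and 292 CPM in WT control cells. Of 22 genes of fatty acid oxidation 11 were higher and 5 lower, or 8 and 6 with upper-quartile scaling. The carnitine carrier Slc25a20 had 119 and 113 CPM in WT DOX cells, against 36.1 and 36.9 CPM in WT control cells, while Cpt1a, the entry enzyme, was lower with 32.8 and 33.1 CPM in WT DOX cells against 75.1 and 67.0 CPM in WT control cells.

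Among genes of metal handling, Slc40a1, the iron exporter ferroportin, had 60.6 and 60.2 CPM in WT DOX cells, against 2.88 and 2.55 CPM in WT control cells, a log2 change of 4.47 ± 0.12. Slc39a14, a zinc and iron importer, had 10.8 and 8.83 CPM in WT DOX cells, against 42.9 and 43.6 CPM in WT control cells, a log2 change of -2.16 ± 0.11. Over the 18 tested members 6 were higher (33.3%, near the share over all tested genes) and 8 lower (44.4%), or 8 and 7 without WT DOX replicate 1. The metallothioneins Mt1 and Mt2, which buffer zinc and copper, rose together. Mt2 had 897 and 857 CPM in WT DOX cells, against 424 and 469 CPM in WT control cells, and Mt1 660 and 672 CPM in WT DOX cells, against 332 and 349 CPM in WT control cells, each with a log2 change of 0.97. Mt3, the third tested member, had 1.97 and 1.56 CPM in WT DOX cells, against 6.29 and 7.85 CPM in WT control cells. TGCNCNC, the pattern searched for the metal response element, is so short and loose that 60.4% of all promoters hold it on either strand. The promoter of Mt2 (chr8:94172368-94172667, plus strand) holds 6 matches to this loose pattern, counting both strands, shown in capitals. Not each of them need be a metal response element.
Mt2: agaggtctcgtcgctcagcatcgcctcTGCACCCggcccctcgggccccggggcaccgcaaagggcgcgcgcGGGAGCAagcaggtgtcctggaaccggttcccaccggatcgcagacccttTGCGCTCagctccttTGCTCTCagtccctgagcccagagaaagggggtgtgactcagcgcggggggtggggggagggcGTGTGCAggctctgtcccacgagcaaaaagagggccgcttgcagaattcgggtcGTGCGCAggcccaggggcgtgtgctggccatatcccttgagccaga

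Genes of the lysosome and of the routes into it were mostly higher. Of 30 genes of lysosomal hydrolases and membrane proteins 21 were higher (70.0%) and 5 lower (16.7%), beside 31.8% and 31.3% over all tested genes. Of 20 subunits of the vacuolar proton pump 12 were higher (60.0%) and 2 lower (10.0%), or 9 and 4 with upper-quartile scaling. Of 25 autophagy genes 14 were higher (56.0%) and 6 lower (24.0%), and of 26 endocytic receptors and adaptors 15 (57.7%) and 5 (19.2%). Ctsl, the protease cathepsin L, had 851 and 848 CPM in WT DOX cells, against 209 and 223 CPM in WT control cells, a log2 change of 1.98 ± 0.049. Psap, the precursor of the saposins, had 904 and 906 CPM in WT DOX cells, against 325 and 341 CPM in WT control cells, and Sqstm1, the autophagy receptor p62, 546 and 548 CPM in WT DOX cells, against 189 and 196 CPM in WT control cells. The ULK kinases that start autophagy differed in direction. Ulk2 had 15.5 and 13.7 CPM in WT DOX cells, against 3.29 and 4.36 CPM in WT control cells, and Ulk1 had 70.8 and 75.2 CPM in WT DOX cells, against 256 and 256 CPM in WT control cells. Lrp2, the endocytic receptor megalin, had 271 and 272 CPM in WT DOX cells, against 42.4 and 43.8 CPM in WT control cells, and its adaptor Dab2 had 30.8 and 29.9 CPM in WT DOX cells, against 3.94 and 4.61 CPM in WT control cells. Dab2 is also a marker of primitive endoderm, the other epithelium of the early embryo. Of 19 tested markers of that tissue 9 were higher and 4 lower, with a summed level of 1350 and 1392 CPM in WT DOX cells, against 598 and 599 CPM in WT control cells. Gata6, a factor of this tissue and of trophoblast, had 9.47 and 11.0 CPM in WT DOX cells, against 0.294 and 0.809 CPM in WT control cells, and Col4a1, a basement membrane collagen, had 258 and 265 CPM in WT DOX cells, against 32.5 and 32.6 CPM in WT control cells. Both were called higher, while Sox17 and Gata4 were not called. The 4 lower markers, the laminin gene Lama1 among them, each fell at least 2-fold. Sox17 had 0.0681 and 0.505 CPM in WT DOX cells and 0.235 and 0.125 CPM in WT control cells, and the part of such cells in these values was not tested.

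Of 306 Slc solute carriers 117 were higher (38.2%) and 97 lower (31.7%), near the shares over all tested genes, or 103 and 111 with upper-quartile scaling. Slc7a3, a carrier of arginine and lysine, had 7.70 and 7.37 CPM in WT DOX cells, against 351 and 361 CPM in WT control cells, a log2 change of -5.56 ± 0.074. Slc35g2, of a family of nucleotide sugar carriers, had 14.2 and 12.7 CPM in WT DOX cells, against 1.00 and 0.872 CPM in WT control cells. Fut9, which makes the stem cell surface antigen SSEA-1, had 1.63 and 1.41 CPM in WT DOX cells, against 21.1 and 19.6 CPM in WT control cells. The ganglioside enzymes St3gal5 and St8sia1 were higher, and St8sia1 had 125 and 120 CPM in WT DOX cells, against 33.2 and 32.8 CPM in WT control cells. Of 24 genes of antiviral sensing and the interferon response 11 were higher (45.8%) and 7 lower (29.2%), beside 31.8% and 31.3% over all tested genes. Ifitm3, a membrane protein that blocks virus entry, had 26 and 25 CPM in WT DOX cells, against 211 and 216 CPM in WT control cells, and Oasl2 had 5.52 and 5.10 CPM in WT DOX cells, against 0.412 and 0.187 CPM in WT control cells.

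Several large protein complexes had many more lower than higher members, with small changes. For comparison, 31.3% of all tested genes were lower, and 48.8% of those above 100 CPM. The part of expression level in these counts was not tested. Of 82 cytosolic ribosomal protein genes 66 were lower (80.5%) and none higher, with a median log2 change of -0.36. Among the largest falls were those of the paralogous copies Rpl39l and Rpl10l, whose reads can be shared with their parent genes. Rpl10l had 39.8 and 44.7 CPM in WT DOX cells, against 149 and 157 CPM in WT control cells. Of 78 mitochondrial ribosomal proteins 45 were lower (57.7%) and 7 higher, and of 38 proteasome subunits 24 were lower (63.2%) and 1 higher. Of 46 subunits and assembly factors of respiratory complex I 22 were lower (47.8%) and 3 higher. Of 13 mRNAs of the mitochondrial genome 1 was higher and 1 lower, or 1 and 2 with upper-quartile scaling. mt-Cytb had 5472 and 5325 CPM in WT DOX cells, against 4074 and 4304 CPM in WT control cells, and mt-Co1 had 3553 and 3185 CPM in WT DOX cells, against 4149 and 4446 CPM in WT control cells. Of 56 splicing factors and hnRNP proteins 37 were lower (66.1%) and 9 higher. Of 44 nuclear transport receptors and pores 32 were lower (72.7%) and 4 higher. Of 24 heat shock proteins and chaperonin subunits 13 were lower (54.2%) and 5 higher, or 16 and 2 with upper-quartile scaling. Hspd1, the mitochondrial chaperonin, had 1305 and 1274 CPM in WT DOX cells, against 1998 and 2075 CPM in WT control cells, while Hspb8, a small heat shock protein of selective autophagy, had 78.4 and 87.0 CPM in WT DOX cells, against 29.1 and 29.4 CPM in WT control cells.

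Genes of DNA replication, mitosis and repair were mostly lower. Of 28 DNA replication genes 22 were lower and 1 higher, of 25 mitosis genes 22 were lower and 1 higher, and of 24 repair genes of homologous recombination and the Fanconi pathway 16 were lower and 3 higher, or 17 and 1 with upper-quartile scaling. Most of these changes were under 2-fold. Mcm3, of the replicative helicase, had 465 and 453 CPM in WT DOX cells, against 845 and 877 CPM in WT control cells, a log2 change of -0.91 ± 0.048. Of 26 genes of G1 cyclins and CDK inhibitors 11 were higher (42.3%) and 11 lower (42.3%), beside 31.8% and 31.3% over all tested genes. Ccnd1, cyclin D1, had 7.15 and 8.43 CPM in WT DOX cells, against 157 and 157 CPM in WT control cells, a log2 change of -4.32 ± 0.095. Cdkn1c, the CDK inhibitor p57, had 238 and 272 CPM in WT DOX cells, against 38.3 and 37.2 CPM in WT control cells, a log2 change of 2.76 ± 0.067, and Cdkn1a, p21, had 71.5 and 82.6 CPM in WT DOX cells, against 23.2 and 24.7 CPM in WT control cells. Of 28 apoptosis regulators 15 were higher (53.6%) and 8 lower (28.6%, near the share over all tested genes). Bmf, a death-promoting relative of BCL2, had 80.1 and 78.2 CPM in WT DOX cells, against 29.2 and 27.8 CPM in WT control cells, and Bok, another relative, had 3.0 and 2.8 CPM in WT DOX cells, against 12 and 13 CPM in WT control cells.

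**Figure D5:**
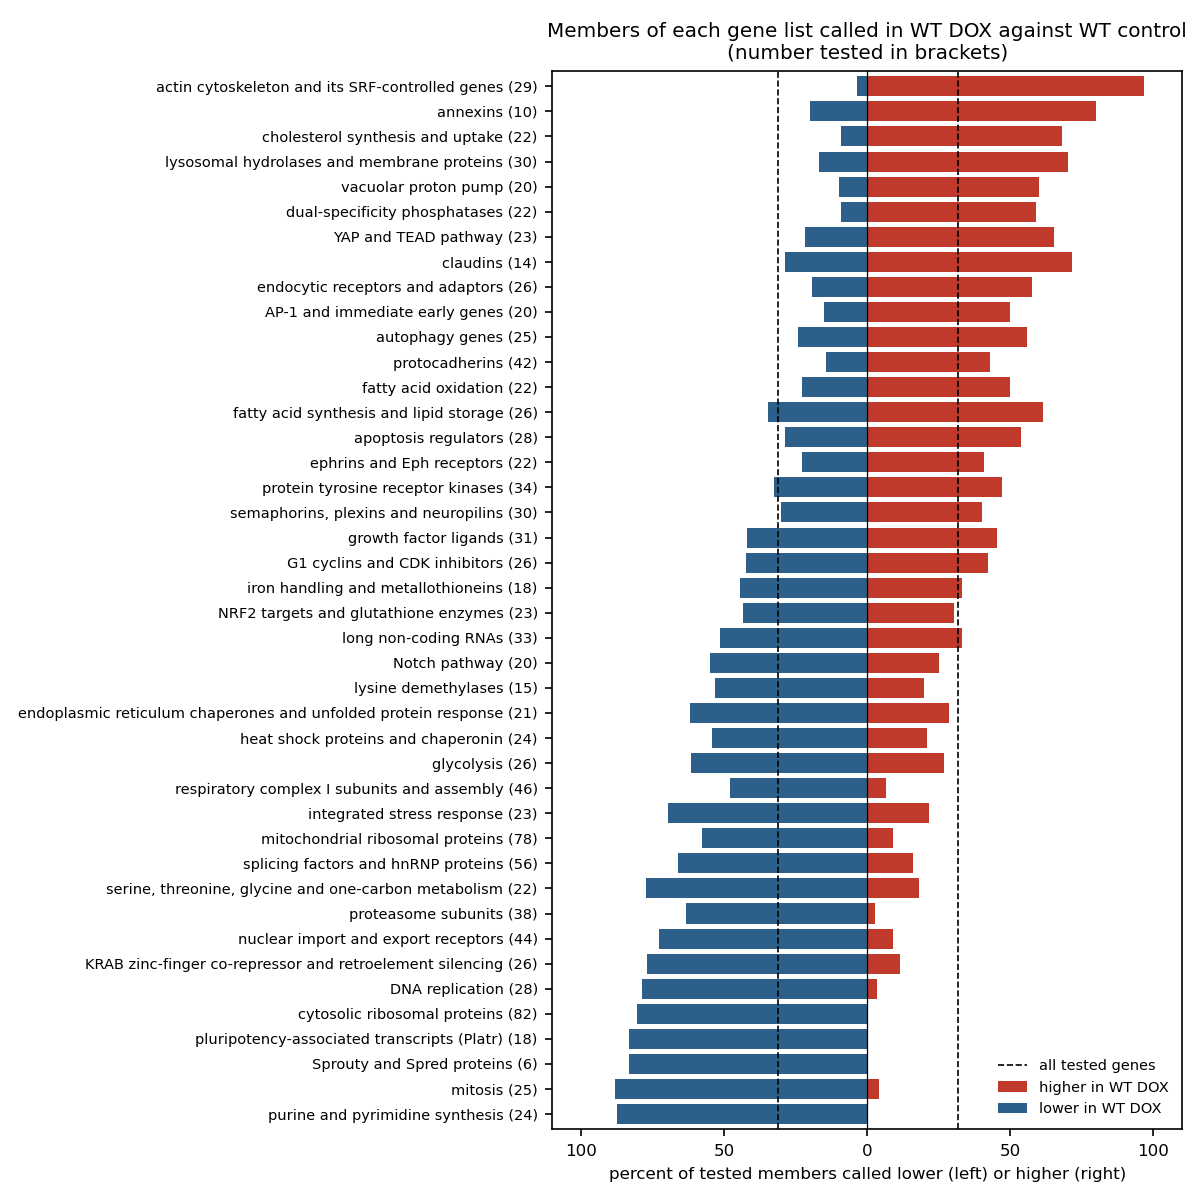
Share of tested members called higher (red, to the right) and lower (blue, to the left) in WT DOX against WT control cells, in percent, for 42 of the gene lists tested, with the number tested in brackets. Dashed lines mark the shares over all tested genes, 31.8% higher and 31.3% lower. Actin genes and annexins stand at the top, and mitosis and nucleotide synthesis at the bottom.

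Genes that silence retroelements were mostly lower, with 20 of 26 lower and 3 higher and a median log2 change of -0.91. L1td1, an RNA-binding protein of pluripotent cells derived from a LINE element, had 53.0 and 54.5 CPM in WT DOX cells, against 685 and 663 CPM in WT control cells, a log2 change of -3.65 ± 0.055. Morc1, which represses transposons in the mouse germ line, had 4.63 and 2.73 CPM in WT DOX cells, against 48.0 and 53.1 CPM in WT control cells. Trim28, the co-repressor of KRAB zinc-finger proteins, had 1195 and 1191 CPM in WT DOX cells, against 2288 and 2307 CPM in WT control cells, a log2 change of -0.95 ± 0.051. Dnmt3b, a DNA methyltransferase, went up, with 282 and 278 CPM in WT DOX cells against 126 and 129 CPM in WT control cells. Of 15 lysine demethylases 8 were lower and 3 higher, or 10 and 1 with upper-quartile scaling, and Kdm5b, which removes methyl groups from lysine 4 of histone H3, had 218 and 204 CPM in WT DOX cells, against 621 and 614 CPM in WT control cells. Of 48 remodelling ATPases and SWI/SNF subunits 19 were higher (39.6%) and 16 lower (33.3%), or 19 and 20 with upper-quartile scaling. Over all tested genes the shares were 31.8% and 31.3%. Smarca2, the BRM ATPase, had 8.85 and 9.64 CPM in WT DOX cells, against 1.12 and 0.934 CPM in WT control cells, and Dpf3, a subunit known from muscle, 7.76 and 9.84 CPM in WT DOX cells, against 0.235 and 0.374 CPM in WT control cells. H2afz, the histone variant H2A.Z, had 599 and 670 CPM in WT DOX cells, against 1358 and 1406 CPM in WT control cells.

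Long non-coding RNAs followed both directions, with 11 of 33 higher (33.3%) and 17 lower (51.5%). Over all tested genes the shares were 31.8% and 31.3%. H19, the imprinted neighbour of Igf2, had 1593 and 1669 CPM in WT DOX cells, against 21.8 and 23.7 CPM in WT control cells, a log2 change of 6.17 ± 0.073. Pvt1, a neighbour of Myc, had 1.57 and 2.02 CPM in WT DOX cells, against 8.17 and 8.03 CPM in WT control cells. The transcripts named Platr for their link to pluripotency were lower in 15 of 18 cases and higher in none, each of the 15 at least 2-fold. Platr10 had 1.23 and 1.21 CPM in WT DOX cells, against 44.3 and 45.5 CPM in WT control cells, and Platr15 1.57 and 1.56 CPM in WT DOX cells, against 31.1 and 26.8 CPM in WT control cells. With no strand setting known, transcripts that overlap a gene on the other strand, such as Tsix, are uncertain.

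Reference genes used for normalisation in PCR were tested as a list of 22. Of these 6 were higher (27.3%) and 13 lower (59.1%), beside 31.8% and 31.3% over all tested genes. Gapdh had 4894 and 4834 CPM in WT DOX cells, against 7138 and 7312 CPM in WT control cells, a log2 change of -0.57 ± 0.055, and B2m was higher, with a log2 change of 0.84 ± 0.080. Actb, the cytoplasmic actin used most often, was higher by 0.28 ± 0.069 on the log2 scale (adjusted p = 0.0015). The genes not called were Eef1a1, an elongation factor (-0.06 ± 0.053), Sdha, of succinate dehydrogenase (0.08 ± 0.052, but -0.03 with upper-quartile scaling), and Polr2a, the large subunit of RNA polymerase II (0.01 ± 0.050, but -0.10 with upper-quartile scaling).

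The same treatment of Phf6 KO cells shares no library with the WT comparison, and the difference between the responses of both lines was tested directly. Pou5f1 itself changed by -6.45 on the log2 scale in KO cells and by -4.65 in WT cells (difference -1.80, adjusted p = 9.6e-06). The depth of the shut-off thus differed between the lines, and its part in the other differences was not tested. The difference between the KO and the WT response passed an adjusted p of 0.05 for 3425 genes (19.2% of those tested), 1630 with a more positive change in KO and 1795 with a more negative one, or 2162 and 1331 with upper-quartile scaling. Of the 29 actin genes 13 responded more positively in KO cells and none more negatively, with a median log2 change of 1.49 in KO cells and 1.25 in WT cells. Of 20 AP-1 and immediate early genes 13 responded more positively in KO cells and 4 more negatively. Ctgf rose by 1.29 on the log2 scale in KO cells, against a change of -0.37 in WT cells (difference 1.66, adjusted p = 5.2e-10), so the lines moved in opposite directions. Cavin1, a coat protein of caveolae, changed by 0.22 in KO cells and by -1.35 in WT cells (difference 1.57, adjusted p = 3e-11). Stmn2 changed by -1.47 in KO cells and by -3.57 in WT cells (difference 2.10, adjusted p = 1.3e-17). For other genes the WT response was the more positive one. Gata6, a factor of primitive endoderm and trophoblast, rose by 1.72 in KO cells and by 4.22 in WT cells (difference -2.51, adjusted p = 0.00076), and Elf3 by 1.15 in KO cells and by 2.38 in WT cells (difference -1.23, adjusted p = 3.1e-09). Of 26 genes of retroelement silencing 2 responded more positively and 12 more negatively in KO cells. Feeder markers differed too, with 8 of 15 more positive in KO cells and none more negative, and their part in these differences was not tested. Spry4 fell in both lines, with a log2 change of -4.58 in KO cells and -5.63 in WT cells, and that difference was called too (1.06, adjusted p = 7.1e-08).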

How the data were processed

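RNA of 12 libraries was sequenced, and the members and gene lists were chosen with earlier results of these data known. The authors deposited expected counts per gene and TPM, per the file headers, as RSEM writes them. Per the submitters' processing notes, STAR 2.5.3a, RSEM 1.3.0 and DESeq2 1.18.1 were used on mm10. Neither the annotation release nor the strandedness of counting is known here. RSEM divides reads shared by similar genes with a model, so values of near-identical genes are uncertain.

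Here the expected counts were rounded, genes were filtered by group (edgeR filterByExpr, minimum count 10) and libraries scaled by TMM. edgeR 4.0.16 in R 4.3.3 (with limma 3.58.1) fitted all 12 libraries by robust quasi-likelihood, with the contrast of WT DOX over WT control and Benjamini-Hochberg adjustment over 17884 genes. Each SE is the absolute log2 change over the root of its F statistic. CPM use the TMM-scaled library sizes, and the TPM are as the authors deposited them. Total counts were 15799517 to 21441996 per library. DESeq2 1.42.0 was an alternative. The procedure was tested on simulated data.

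Genes were named by a rule. It took Pou5f1 and Phf6, the 15 largest called rises and falls with at least 5 CPM, and the 10 largest TPM gains and losses. It also took up to 3 called members per direction of each list with its namesakes, and the housekeeping genes. The largest rises and falls left out genes on marker lists, predicted or clone-based symbols and genes whose libraries overlap. Retinoic acid libraries, made with another RNA kit, entered the filter, the scaling and the estimate of spread. Without them 16385 genes were tested and 10843 called, and with the 4 WT libraries alone 15627 and 10713.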

Additional observations from a re-analysis of the deposited data

Results flagged for a closer look

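Of 171 genes given with values above, 100 responded differently to doxycycline in Phf6 KO and in WT cells, by the test of the difference itself (edgeR, adjusted p below 0.05 over all tested genes). Over all tested genes the share was 19.2%. Many of the 171 were named for large WT changes, which enter the difference, so 100 of 171 does not describe the whole response. The difference was more positive in KO cells for 52 of them and more negative for 48. All values below are KO response minus WT response on the log2 scale, from 2 libraries in each of 4 groups. A more positive difference means a larger rise or a smaller fall in KO cells. No group has enough libraries for a search of single outlying samples.

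Differences of 1 or more in the positive direction were Kirrel2 4.52, Dcn 4.05, Acta2 2.48, Stmn2 2.10, Myo1f 2.03, Fosl1 1.95 and Csf1 1.86. A further group in that range was Bok 1.85, Hspb8 1.78, Fosl2 1.73, Ctgf 1.66, Cavin1 1.57, Cyr61 1.48 and Egr1 1.47. The same range held Fosb 1.23, Tagln 1.21, Chac1 1.20, Jam2 1.17, Atf3 1.10, Spry4 1.06 and Slc7a3 1.03. Positive differences below 1 were Thy1 0.99, Col1a1 0.92, Junb 0.87, Vim 0.82, B2m 0.82, Slc7a11 0.79 and Sema6a 0.79. A further group in that range was Tubb6 0.79, Gldc 0.79, Gsr 0.72, Ccnd1 0.70, Dab2 0.67, Eno1 0.66, Ldhb 0.65 and Hmox1 0.63. The same range held Tuba1a 0.59, Spp1 0.59, Fos 0.58, Sox4 0.57, Pcdh1 0.49, Foxp1 0.48, Cldn4 0.48 and Dusp6 0.48. Also in that range were Sox2 0.48, St8sia1 0.43, Klf5 0.36, Lrp2 0.36, Psat1 0.32, Ifitm3 0.31, Actb 0.30 and H2afz 0.22.

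Differences of 1 or more in the negative direction were Myl3 -4.24, Chrna3 -3.48, Dpf3 -2.75, Gata6 -2.51, H19 -2.07, Pou5f1 -1.80, Morc1 -1.62 and Igf2 -1.54. A further group in that range was Klf4 -1.37, Fgfr2 -1.33, Fut9 -1.28, Tdh -1.26, Peg10 -1.23, Vdr -1.23, Elf3 -1.23, Efnb1 -1.18 and Slc40a1 -1.07. Smaller negative differences were Cdkn1c -0.97, Dusp8 -0.94, Zfp296 -0.94, St3gal5 -0.91, L1td1 -0.91, Pfkp -0.90 and Sat1 -0.90. A further group in that range was Cpt1a -0.87, Amot -0.85, Slc2a1 -0.82, Ctsl -0.82, Slc25a20 -0.71, Klf2 -0.70, Psap -0.70 and Bmf -0.70. The same range held Slc2a3 -0.66, Fabp3 -0.61, Anxa2 -0.57, Foxo4 -0.54, Id2 -0.53, Jun -0.43, Etv5 -0.41 and Dusp9 -0.40. Also in that range were Rpl10l -0.38, Rarg -0.35, Notch1 -0.34, Trim28 -0.34, Klf6 -0.31, Prps1 -0.26, Dnmt3b -0.25 and Stard4 -0.23. Dcn is a feeder marker that was near 0 in all 4 WT libraries. Kirrel2 had no read in WT DOX cells, so the size of its difference depends on the prior count and is not a bound. The difference of Chrna3 rests on 3 reads in WT control cells and that of Myl3 on 4. Dpf3 was below 0.5 CPM in both WT control libraries.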

How the results depend on the processing

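All settings below were fixed with earlier results known, and those of the KO minus WT difference and of the 2-fold counts were chosen after seeing the data. The count of called genes, 11274, stayed within 1.5 times under every scaling, filter, set of libraries and test, from 9731 at an adjusted p below 0.01 to 11374 with upper-quartile factors, except in a test against a change of 1.5-fold (glmTreat), which called 5044 genes, 2658 higher and 2386 lower. Without 1 WT library the total ranged from 10129 to 10541, the higher genes from 5095 to 5357, the lower genes from 4977 to 5184 and those at least 2-fold changed from 4233 to 4346. The difference between KO and WT responses was called for 3425 genes, for 2232 by DESeq2, and for 2569 to 3018 without 1 WT library. A replicate block gave 11168 calls for the WT response and 3316 for that difference. Same-numbered WT libraries did not deviate together (r = -0.018), so the numbers were not read as pairs. Between WT DOX and KO DOX libraries r was -0.204. The spread between replicates, relative to counting error alone, was 4.88 in WT DOX and 6.28 in KO DOX. It was 2.42 in WT control and 2.5 in KO control. All groups share the estimate of spread in the fit, so an SE of the doxycycline response may be too small.

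Leaving out 1 library gave 0.07 as the highest value of Polr2a, 0.62 of mt-Atp8 and 0.336 of Gm10925. Polr2a, at 0.01 on the log2 scale and not called, changed sign with upper-quartile factors (-0.102), with RLE factors (-0.016), with DESeq2 (-0.016), without WT DOX replicate 2 (-0.039) and without WT control replicate 2 (-0.033). Sdha changed sign with upper-quartile factors (-0.033), and mt-Atp8 (-0.041) and Gm10925 (-0.054) without WT DOX replicate 1. None of these 4 genes was called, and the cause was not tested. Of 523 genes named by rule or picked from lists, 506 to 522 kept direction and call per setting. The majority direction of a list turned for 5 lists with upper-quartile factors, for 1 with no filter and for 2 without WT DOX replicate 1. In simulated counts with 17004 genes tested, 87.8% of 4-fold changes and 42.2% of 1.25-fold changes were recovered, so small changes can be missed at this depth. The simulation left 16814 of these genes unchanged, while most genes were called in the real comparison, so these rates may not hold for it.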
